A study of Mus musculus with 8 samples.

Results

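Regeneration-associated genes are the genes that neurons able to regrow a cut axon switch on, together with genes that set how far that growth can go. The module described here has 34 members, chosen by name, and each was taken as the row of the count matrix with that symbol. All 34 were found among the 19787 genes of the matrix. By role they are 15 transcription factors, 8 genes of the growth cone and cytoskeleton, 7 receptors, adhesion molecules and growth signalling genes, and 4 stress and enzyme genes.

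After a peripheral axon is cut, sensory and motor neurons induce AP-1 and related factors such as Atf3 and Jun together with Sox11 and Stat3, and their growth cones fill with Gap43, Basp1 and Sprr1a. Cytokines of the interleukin-6 family signal through Il6st (gp130) and, for ciliary neurotrophic factor, Cntfr, to phosphorylate Stat3, while Socs3 limits that signal. Central neurons are known to mount this programme weakly, and Klf4 and Klf9 are known as brakes on axon growth where Klf6 and Klf7 favour it.

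Nuclei were isolated from spinal cord at the low thoracic level in C57BL/6 mice of wild-type genotype and profiled with the 10x v3 single-nucleus RNA assay in 3 experiments and 8 libraries. In experiment 1, each of 2 uninjured replicates gave a GFP-positive library of traced neurons, which project to the lumbar cord, and a GFP-negative library of untraced nuclei. Experiment 2 gave 2 libraries after hemisection, a surgical cut through a single side of the cord, and 1 uninjured control library. Neurons were 89.6% and 7.15% of the nuclei in hemisection replicates 1 and 2 and 32.4% in the control. Microglia were 2.87% and 39.2%, and 5.51% in the control. Experiment 3 gave 1 library of traced, regenerating neurons. The age of the mice, the time from injury to collection, the tracing construct and the number of animals pooled per library are not stated in the labels. Where nothing says that replicates are separate animals, p-values measure only the spread between these libraries, and the groups with 1 library were assumed to vary like the replicated ones.

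A level is given as CPM, the unique molecular identifiers (UMIs, counted RNA molecules) of a gene per 1000000 UMIs of all nuclei of a class in a library. Neurons numbered 4076 of 12447 nuclei, from 25 to 2148 per library, and their summed UMIs ran from 135012 in the regenerating library to 20739862 in the uninjured control. The median neuron held 488 UMIs in the regenerating library and 5767 to 16489.5 in the others. The 8 neuronal markers summed to between 7984 and 14050 CPM in neurons of every library, with none at 0. In the uninjured control, neurons also held more oligodendrocyte marker RNA (758 CPM for 8 markers, against 78.0 to 263 in the other libraries) and more mitochondrially encoded RNA (4639 CPM, against 590 to 1706), and their part in the results below was not tested. Any pair of libraries shared at most 2 cell barcodes, and 4727 nuclei of the control and the regenerating library carried no barcode to compare. Levels per nucleus class do not separate fewer transcribing nuclei from less RNA per nucleus.

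The sequences upstream of Stat3, its inhibitor Socs3 and Klf9 are shown. Stat3 and Socs3 belong to the cytokine arm of the module. Klf9 was called with them in oligodendrocytes against the uninjured control alone, and is among the 4 members whose window holds the element below. Cebpd, Gadd45a and Sox11, which were called against the untraced oligodendrocytes, are not shown, so the choice says nothing about which responding members carry the element. Each is the 250 bases upstream of the gene's start in RefSeq on GRCm38.p6, 5′ to 3′ on the gene's strand, with a match to TTCNNNGAA, the palindromic element that STAT dimers are known to bind, in capitals. Socs3 lies at chr11:117969367-117969616 on the minus strand, Klf9 at chr19:23140976-23141225 on the plus strand, and Stat3 at chr11:100939541-100939790 on the minus strand.
Socs3: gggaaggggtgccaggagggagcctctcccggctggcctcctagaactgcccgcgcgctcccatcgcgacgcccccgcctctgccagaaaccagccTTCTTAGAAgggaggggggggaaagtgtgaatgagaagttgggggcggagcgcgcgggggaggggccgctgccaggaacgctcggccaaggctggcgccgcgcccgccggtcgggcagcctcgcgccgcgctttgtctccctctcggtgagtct
Klf9: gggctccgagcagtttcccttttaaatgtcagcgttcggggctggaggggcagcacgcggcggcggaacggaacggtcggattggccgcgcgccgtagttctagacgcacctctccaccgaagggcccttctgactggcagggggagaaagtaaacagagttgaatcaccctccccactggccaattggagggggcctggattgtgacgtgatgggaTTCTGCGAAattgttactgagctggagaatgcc
Stat3: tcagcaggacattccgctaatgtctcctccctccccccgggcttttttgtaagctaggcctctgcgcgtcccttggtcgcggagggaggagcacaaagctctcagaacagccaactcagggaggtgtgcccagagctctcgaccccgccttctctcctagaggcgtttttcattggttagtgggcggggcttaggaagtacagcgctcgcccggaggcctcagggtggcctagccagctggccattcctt
The Socs3 match begins 154 bases before the RefSeq start and the Klf9 match 33 bases before its own, while the Stat3 window holds none. By its Ensembl coordinates Socs3 spans chr11:117966079-117970047, so its window, placed by the RefSeq start, lies inside that longer gene model. Of the 34 members, 26 had such a window, and 4 of these (Klf9, Mtor, Rarb and Socs3) held TTCNNNGAA, against 2306 of all 32851 windows, or 7.02%. The AP-1 element TGANTCA, read on both strands, was in 3 members (Anxa2, Klf9 and Sprr1a) and in 6.75% of all windows. The full cyclic AMP element TGACGTCA was in none of the 26 and in 1.55% of all windows. A match describes the letters of a window and shows no binding.

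The first question was whether neurons of the cord repairing after hemisection held more of these RNAs than uninjured neurons. Against the uninjured control of the same experiment, 2 members changed in neurons: Sox11 was 3.04-fold higher and Flrt3 was lower by 1.48 on the log2 scale. With edgeR's quasi-likelihood test and Benjamini-Hochberg adjustment over 11601 genes, 5.56% of all genes were called, 110 higher and 535 lower, and 2 of the 23 members that passed the filter on low counts were called. The members' median log2 fold change was 0.24, with 17 of 23 above 0, beside a median of 0.03 over all genes tested. A count of 2 in 23 is near the share called over all genes.

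Sox11, an SRY-box factor of immature neurons that is induced in regenerating sensory neurons, lies on chromosome 12 (27334264 to 27342574, minus strand, mm10). It stood at 54.8 and 51.6 CPM in the hemisection libraries and at 18.9 CPM in the uninjured control. Its log2 fold change was 1.60 (SE 0.29, adjusted p = 0.00429). The other uninjured libraries did not share the control's low level, since the untraced neurons held 52.2 and 34.7 CPM and the traced neurons 41.3 and 30.0 CPM. Hemisection and untraced neurons overlapped, and the mean was 53.2 ± 2.24 CPM (SD, n = 2) after hemisection and 43.4 ± 12.4 CPM (SD, n = 2) in untraced neurons. The uninjured control was itself lower than the untraced neurons in Sox11, by 1.34 on the log2 scale (SE 0.30, adjusted p = 0.0251), in a comparison where 2.58% of genes were called and Sox11 was the called member.

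Flrt3, a leucine-rich transmembrane protein that binds FGF receptors, Unc5 and latrophilins in axon guidance, showed the mirror image. Its levels were 32.1 and 28.7 CPM after hemisection, 92.6 CPM in the uninjured control, 54.7 and 30.2 CPM in untraced neurons and 37.9 and 30.0 CPM in traced neurons. The control was the highest library, and hemisection and traced neurons overlapped. The log2 fold change against the control was -1.48 (SE 0.28, adjusted p = 0.00498).

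Neither call held with the second uninjured reference. Against the untraced neurons, edgeR called 0 of 23 members, 0 had an unadjusted p under 0.05, and DESeq2 called 0, where 0.19% of all genes were called. Sox11 then differed by 0.26 and Flrt3 by -0.53 on the log2 scale, and the members' median was 0.15 with 19 of 23 above 0. The smallest p-values there were those of Creb1 (0.45, SE 0.21), Flrt3 (SE 0.26), Jun (0.88, SE 0.50) and Sox4 (0.57, SE 0.33), each with an adjusted p of 1. Both references differ from the hemisection libraries in more than injury, since the untraced neurons come from another experiment and were sorted, so experiment and injury cannot be told apart there. With both references pooled, an alternative chosen after seeing the data, the difference was 0.68 for Sox11 (adjusted p = 0.873) and -0.95 for Flrt3 (adjusted p = 0.754). Without hemisection replicate 1 the adjusted p rose to 0.0653 for Sox11 and 0.0847 for Flrt3, and with DESeq2 to 0.0863 and 0.0997. A fit of the compared groups alone called 8 members, and 2413 genes over all.

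**Figure D1:**
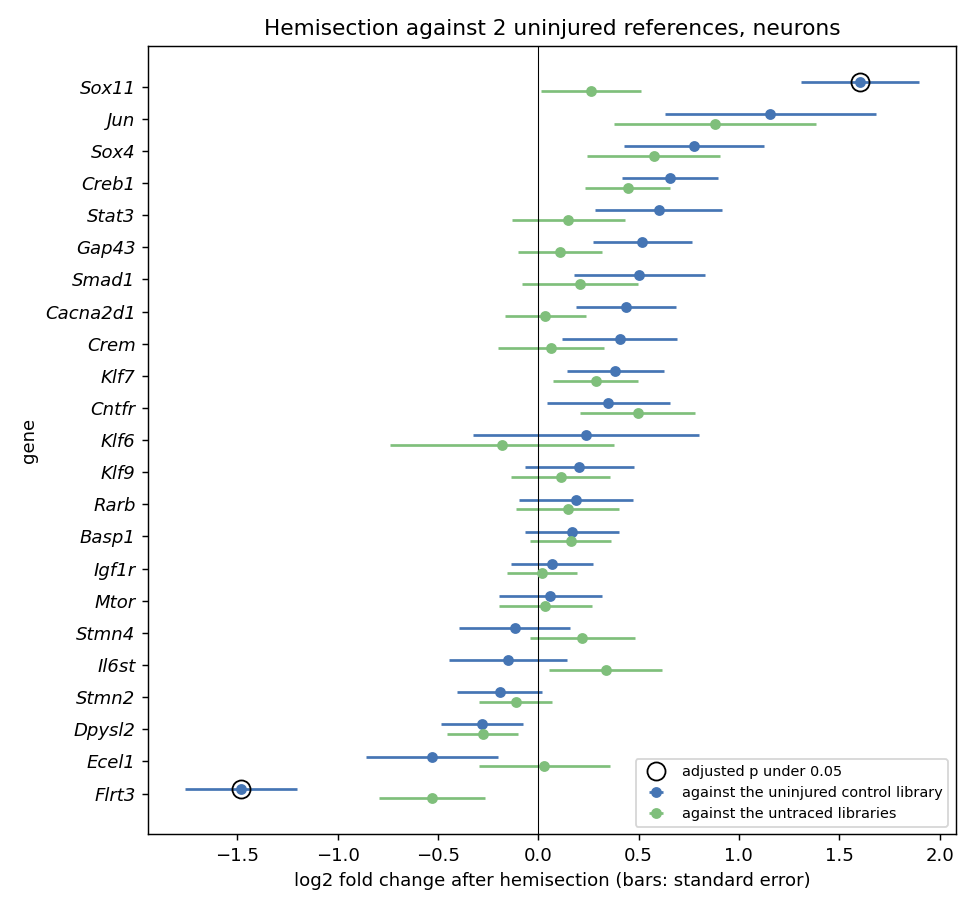
Log2 fold change after hemisection for the 23 members tested in neurons (points, with the standard error as bars), against the uninjured control library and against the untraced libraries; circled points have an adjusted p under 0.05. Only Sox11 and Flrt3 against the control are circled, and both sit nearer 0 against the untraced libraries.

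Among the transcription factors, 11 of 15 were tested, all 11 had a log2 fold change above 0 against the control, and 1 was called. The median was 0.50. These values use edgeR's scaling of the libraries, and the unscaled pooled CPM of Rarb was lower after hemisection than in the control. Creb1, the cyclic AMP response factor, stood at 84.0 and 72.6 CPM after hemisection against 54.1 CPM in the control and 66.4 and 48.1 CPM in untraced neurons. Hemisection exceeded these uninjured libraries, but traced neurons at 79.9 and 93.0 CPM overlapped it, and the difference was 0.66 (SE 0.24, adjusted p = 0.138). With the replicate number of experiment 1 as a block, Creb1 passed at 0.66 (adjusted p = 0.038). Sox4, the close relative of Sox11, held 21.2 and 22.9 CPM after hemisection and 13.7 CPM in the control. Untraced neurons held 16.2 and 12.3 CPM and traced neurons 8.27 and 8.997 CPM of Sox4. Both hemisection libraries lay above all 5 uninjured libraries, with a log2 difference of 0.78 from the control (SE 0.35, adjusted p = 0.242). Jun, the AP-1 subunit that drives the peripheral programme, was at 16.7 and 10.5 CPM against 6.99 in the control and 9.69 and 4.48 in untraced neurons. Its log2 difference was 1.16 (SE 0.53, adjusted p = 0.245), and the traced libraries at 2.76 and 14.99 CPM spanned the range.

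Klf7, an axon growth factor of the Krüppel-like family, was at 94.2 and 99.4 CPM after hemisection and between 63.0 and 87.5 CPM in the 5 uninjured libraries, which it did not overlap. Its log2 difference from the control was nevertheless 0.38 (adjusted p = 0.419). Stat3 was at 70.0 and 65.0 CPM against 48.3 CPM in the control, with untraced neurons at 47.3 and 82.8 CPM on both sides of it (0.60, adjusted p = 0.321). Smad1, the BMP effector, and Crem and Klf9 differed from the control by 0.50, 0.41 and 0.20 on the log2 scale. Klf6 and Rarb, the retinoic acid receptor linked to neurite growth, differed by 0.24 and 0.19, though pooled Rarb was at 53.6 CPM after hemisection and 58.2 CPM in the control. None of these 5 passed the test.

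Of the 8 growth cone and cytoskeleton genes, 5 were tested, none was called by edgeR or DESeq2, and none had an unadjusted p under 0.05; the median was -0.12. Gap43, the growth cone phosphoprotein that marks regrowing axons, stood at 170 and 112 CPM after hemisection. It was at 108 CPM in the control, 137 and 133 CPM in untraced neurons and 136 and 108 CPM in traced neurons. Hemisection replicate 1 was the highest of these and replicate 2 lay inside the uninjured range, with a log2 difference of 0.52 (SE 0.25, adjusted p = 0.267). Dpysl2 (CRMP2), which delivers tubulin to growing microtubules, went the other way, with 184 and 193 CPM after hemisection and 215 to 247 CPM in the 5 uninjured libraries. The groups did not overlap, but the log2 difference of -0.28 had an adjusted p of 0.506. Basp1, a partner of Gap43 at the membrane, and the tubulin regulators Stmn2 and Stmn4 differed by 0.17, -0.19 and -0.12.

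Among receptors and growth signalling genes, 6 of 7 were tested and Flrt3 was the 1 called, with a median of 0.06. Il6st, the shared receptor chain of the interleukin-6 family, stood at 28.5 and 30.6 CPM after hemisection and 34.9 CPM in the control. Cntfr, the receptor for ciliary neurotrophic factor, was at 44.2 and 54.5 CPM against 40.7 CPM. Igf1r, the insulin-like growth factor receptor, and Mtor, the growth kinase, differed by 0.07 and 0.06 on the log2 scale (SE 0.20 and 0.26). Their ratios of unscaled pooled CPM to the control were 0.964 and 0.967. Cacna2d1, the calcium channel subunit that gabapentin binds, was at 1093 and 1137 CPM against 891 CPM in the control and 1054 and 1146 CPM in untraced neurons (0.44, adjusted p = 0.367). Of the stress and enzyme genes, Ecel1, an endopeptidase induced by nerve injury, was the 1 tested. It held 17.7 and 14.3 CPM after hemisection against 25.7 CPM in the control and 14.5 and 20.1 CPM in untraced neurons (-0.53, adjusted p = 0.411).

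The other 11 members were too low to test in neurons. Atf3, the classic marker of axotomised neurons, had 8 UMIs over the 1000 and 108 hemisection neurons and 9 UMIs over 2148 control neurons, or 0.871 and 0.434 CPM. Its ratio was 2.01 (95% counting interval 0.674 to 5.86), and the untraced neurons at 0.681 CPM lay between. Socs3 had 14 UMIs after hemisection and 4 in the control, a ratio of 7.90 with a counting interval of 2.48 to 33.0. Untraced replicate 1 held Socs3 at 1.14 CPM, close to the 1.60 and 0.956 CPM of the hemisection libraries, while the control held 0.193 CPM. Anxa2, a membrane-binding annexin, had 7 UMIs after hemisection and 108 in the control, and 43 of the latter came from motor neurons. The motor neuron markers summed to 41.4 CPM in control neurons and to 4.91 and 5.74 CPM after hemisection, and their part in the Anxa2 difference was not tested. Sprr1a, an epithelial protein induced in injured sensory neurons, and the neuronal tubulin Tubb3 had 0 UMIs after hemisection and 3 in the control. Counting error alone therefore limits what can be said of Atf3, Sprr1a and Tubb3, and the intervals cover counting error only.

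**Figure D2:**
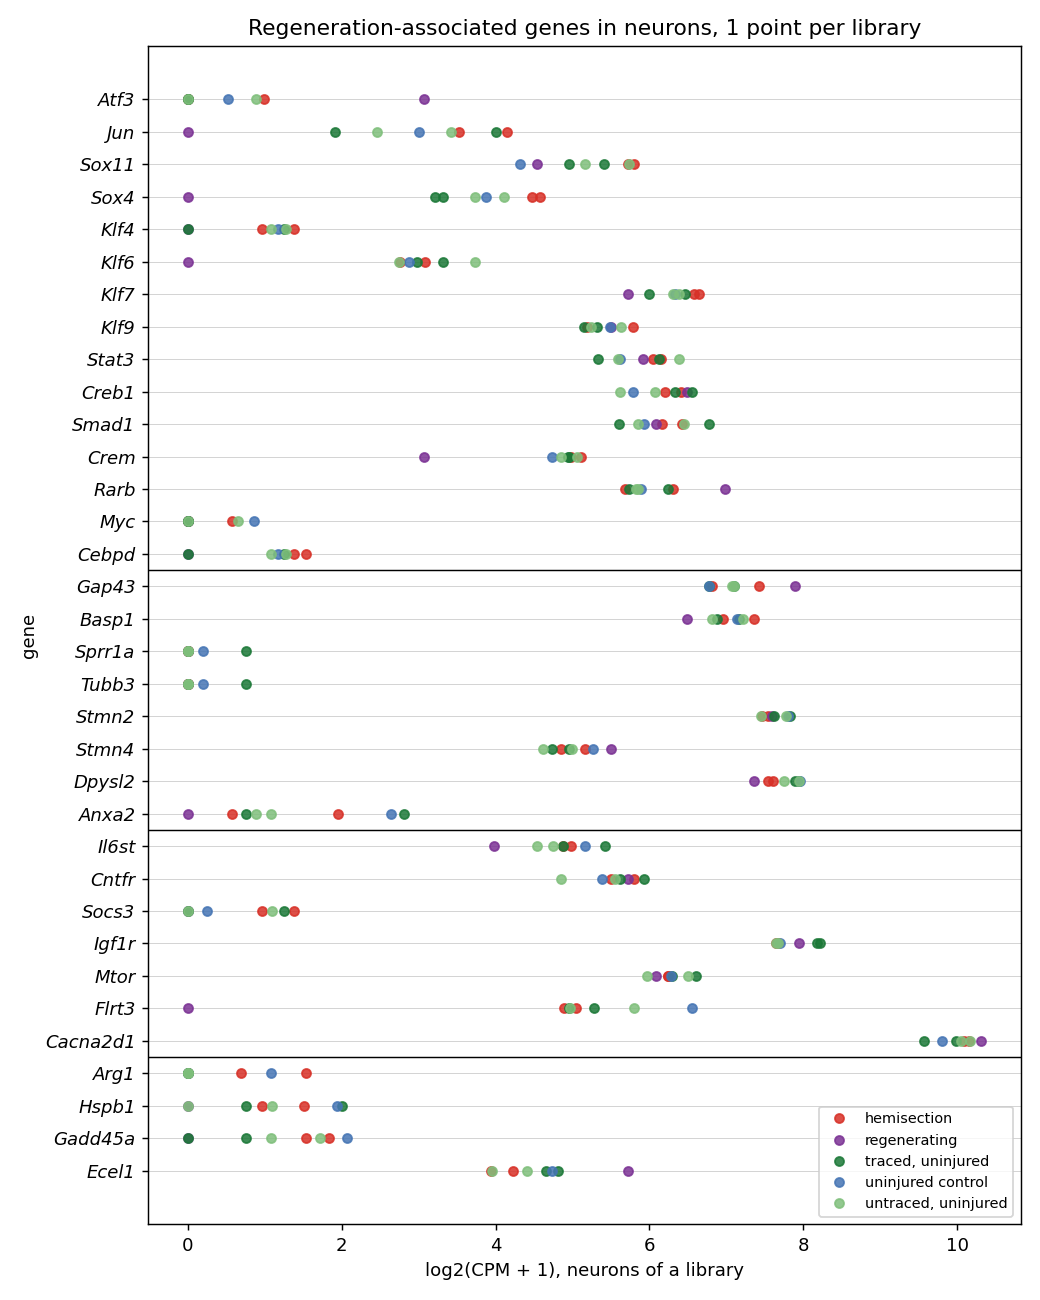
Level of each of the 34 members in neurons as log2(CPM + 1), 1 point per library, coloured by group and separated by role with lines. The hemisection points of most members fall among the uninjured points, and Atf3, Sprr1a, Tubb3 and Myc lie near 0 in every group, the single regenerating Atf3 UMI apart.

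Other genes of the same pathways were read from lists. Of 21 listed genes of gp130 and JAK-STAT signalling, 14 were tested in neurons and 2 rose against the control, with a list median of 0.29. Over all 11601 genes tested in neurons 5.56% were called in either direction, 110 of 11601 higher and 535 of 11601 lower. Counts of genes that rose belong beside the 110, and counts of genes that fell beside the 535. A count of 1 gene in lists of this size is not read as a result about the list. Stat2, a signal transducer of the same family as Stat3, was at 68.1 and 77.4 CPM after hemisection against 32.8 CPM in the control and 29.6 and 40.3 CPM in untraced neurons (1.24, adjusted p = 0.0263). Hemisection did not overlap these uninjured libraries. Of 16 tested AP-1 and CREB partners, 1 rose: Fos, at 8.84 and 3.82 CPM against 0.579 CPM in the control but 8.27 and 10.1 CPM in untraced neurons (median 0.35). Of 20 tested PI3K and mTOR genes, 1 fell, the ribosomal protein gene Rps6, by 1.29 (adjusted p = 0.0443; median 0.10).

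The remaining 5 lists held no gene that rose by the test. Of 19 tested growth cone and cytoskeleton genes outside the module, 4 fell (median 0.06): the neurofilament genes Nefh, Nefl and Nefm and the stathmin Stmn3. Nefl was at 27.6 and 22.0 CPM after hemisection, 152 CPM in the control and 62.4 and 11.2 CPM in untraced neurons, so that the control was again the extreme library. Of 11 tested injury peptides and signals, 3 fell (Npy, Gal and Vip; median -0.48). Klf10 fell among 5 tested Klf genes (median 0.41) and Sox10, an oligodendrocyte factor, among 5 tested Sox genes (median 0.45). None of 12 tested genes known to restrain growth was called by edgeR, with 5 at an unadjusted p under 0.05 and a median of -0.02. Against the untraced neurons, 1 gene of these 8 lists was called, and at most 2 genes of any list had an unadjusted p under 0.05.

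The pooled neuron levels average over 28 annotated subtypes, and many members differ widely among these. In the uninjured control, 24 subtypes had at least 20 neurons. Cacna2d1 ranged from 13.7 CPM in DI_Npy to 4042 CPM in DE_Nts, and Ecel1 from 0 UMIs in DE_Rora to 347 CPM in DI_Npy. Rarb was lowest in DE_Nts, at 11.2 CPM. Motor neurons (MN) were the subtype with the highest level of several members, namely Stat3 at 158 CPM, Stmn2 at 480 CPM, Dpysl2 at 358 CPM, Cntfr at 91.1 CPM and Anxa2 at 95.5 CPM. They were also lowest for Gap43, at 26.7 CPM. DE_Nts had the highest Klf7 (140 CPM), Sox11 (59.0 CPM) and Sox4 (33.5 CPM) and the lowest Igf1r (52.6 CPM). Creb1 and Mtor spanned narrower ranges, from 24.96 to 70.1 CPM and from 44.0 to 109 CPM.

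Within subtypes, the 2 called members kept their direction against the control. Hemisection replicate 1 and the control shared 15 subtypes with at least 20 neurons each, and Sox11 was higher after hemisection in 15 of 15, although DE_Rreb1_Zim1 rests on 1 UMI against 0. Flrt3 was higher in 1 of 15, DI_Rorb, at 113 against 110 CPM. In DE_Nts, Sox11 was at 59.0 CPM in the control and 294 CPM after hemisection, but untraced replicate 1 stood at 376 CPM. Against untraced replicate 1, Sox11 was higher after hemisection in 4 of 7 shared subtypes and Flrt3 in 2 of 7. These counts compare 1 library with 1 library and carry no test. Gap43 was above the control in 14 of 15 subtypes and above untraced replicate 1 in 6 of 7. Stat3, Creb1 and Smad1 were above the control in 13 of 15, and above untraced replicate 1 in 5, 6 and 7 of 7. Dpysl2 was above the control in 3 of 15 and above untraced replicate 1 in 0 of 7.

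**Figure D3:**
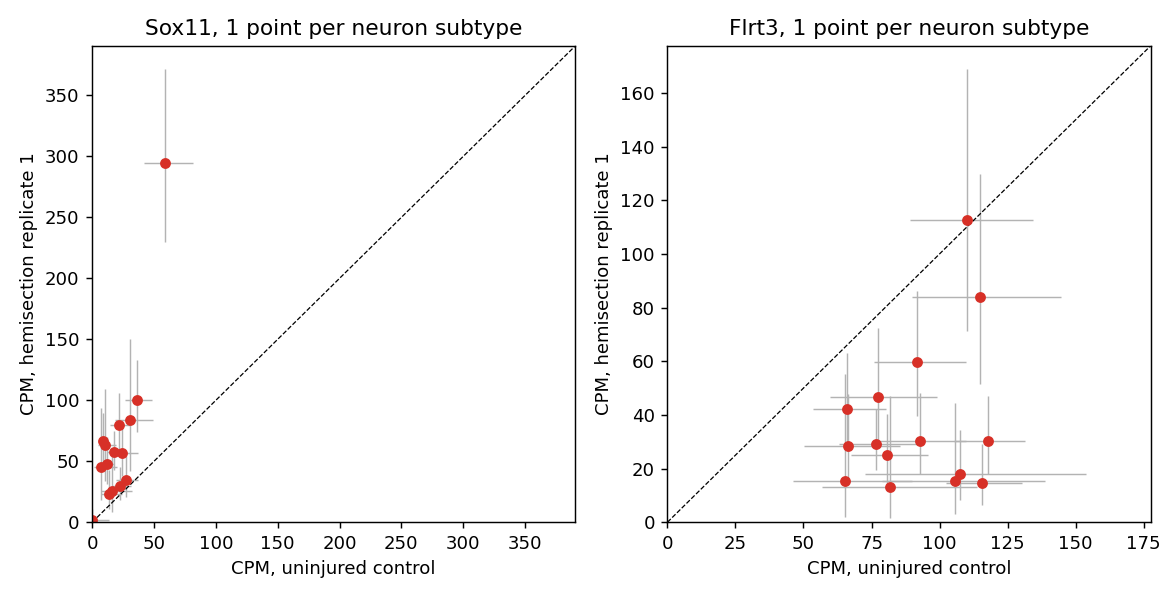
CPM of Sox11 (left) and Flrt3 (right) in hemisection replicate 1 against the uninjured control, 1 point for each of 15 neuron subtypes with at least 20 neurons in both, with 95% Poisson intervals as bars. All 15 Sox11 points lie above the dashed line of equal levels and 14 of 15 Flrt3 points lie below it.

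A single subtype, the dorsal excitatory DE_Reln_Nmur2, had at least 20 neurons in each library of experiment 2 and could be tested. There 98 of 5794 genes were called, or 1.69%, and edgeR called 0 of 18 members, with 1 at an unadjusted p under 0.05. Sox11 was at 36.2 CPM in the control and 100 CPM in hemisection replicate 1, and its log2 difference over both replicates was 1.30 (SE 0.46, adjusted p = 0.192). Flrt3 differed by -0.71, Creb1 by 0.65, Klf7 by 0.49 and Gap43 by 0.51, the same directions as over all neurons. Setting all libraries to equal numbers of neurons per subtype before the sum gave Sox11 a log2 difference of 0.98 (adjusted p = 0.257) and Flrt3 one of -1.45 (adjusted p = 0.0499).

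The regenerating neurons were compared with the traced neurons of uninjured cord, as both were collected by the GFP label. The regenerating library comes from another experiment than the traced libraries, so experiment and regeneration cannot be told apart here. On simulated counts, this comparison recovered 26.5% of 4-fold changes. None of the members was called: edgeR called 0 of 23 and DESeq2 0, with 3 at an unadjusted p under 0.05, where 0.276% of all genes were called (25 higher and 7 lower). The members' median log2 difference was -0.28, the same as over all genes. The regenerating library is shallow, so that 3 UMIs amount to 22.2 CPM. Of the 34 members, 14 had 0 UMIs, 4 had 1 to 3 (Atf3, Crem, Il6st and Sox11) and 16 had more than 3.

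Gap43 had 32 UMIs, or 237 CPM, against 136 and 108 CPM in traced neurons. It was the highest of all 8 libraries, and the ratio to the pooled traced level was 1.82 with a counting interval of 1.21 to 2.64. By edgeR its log2 difference was 0.88 (SE 0.35, adjusted p = 0.272). Rarb had 17 UMIs, or 126 CPM, against 52.4 and 75.0 CPM, also above all other libraries (ratio 2.23, interval 1.25 to 3.74; adjusted p = 0.327). Cacna2d1 had 171 UMIs, or 1267 CPM, against 1016 and 762 CPM, a ratio of 1.31 (interval 1.11 to 1.53; adjusted p = 0.411). These 3 ratios had intervals above 1, which cover counting error in the pooled libraries and not the spread between mice. After each neuron was thinned to 300 UMIs, 5.47% of regenerating neurons had a Gap43 UMI against 5.00% and 0% of traced neurons, and 25.4% had a Cacna2d1 UMI against 18.8% and 12%.

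Flrt3 was the member with the smallest p. It had 0 UMIs in the 238 regenerating neurons, taken to allow up to 22.2 CPM, against 36.4 CPM over the traced neurons. By edgeR the difference did not pass the test (unadjusted p = 0.00628, adjusted p = 0.195). The pooled traced level was 1.64-fold that limit, which leaves out the counting error of the traced level. The Poisson interval of the regenerating level reached 27.3 CPM and that of the pooled traced level began at 28.1 CPM. The size of the Flrt3 difference is therefore not bounded at 1.64-fold. Ecel1 had 7 UMIs (ratio 2.10, interval 0.799 to 4.71) and Sox11 had 3 (ratio 0.567, interval 0.114 to 1.73). Dpysl2, at 163 CPM against 246 and 237 CPM, had a ratio of 0.667 (interval 0.414 to 1.02). Crem had 1 UMI (ratio 0.249, interval 0.0062 to 1.45; adjusted p = 0.377). The single Atf3 UMI equals 7.41 CPM in this library, and the traced libraries had none. The injury factors Jun, Sox4, Klf6 and Socs3 had 0 UMIs there, at a depth where the traced levels of all 4 lie under the 22.2 CPM that 0 UMIs allow.

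**Figure D4:**
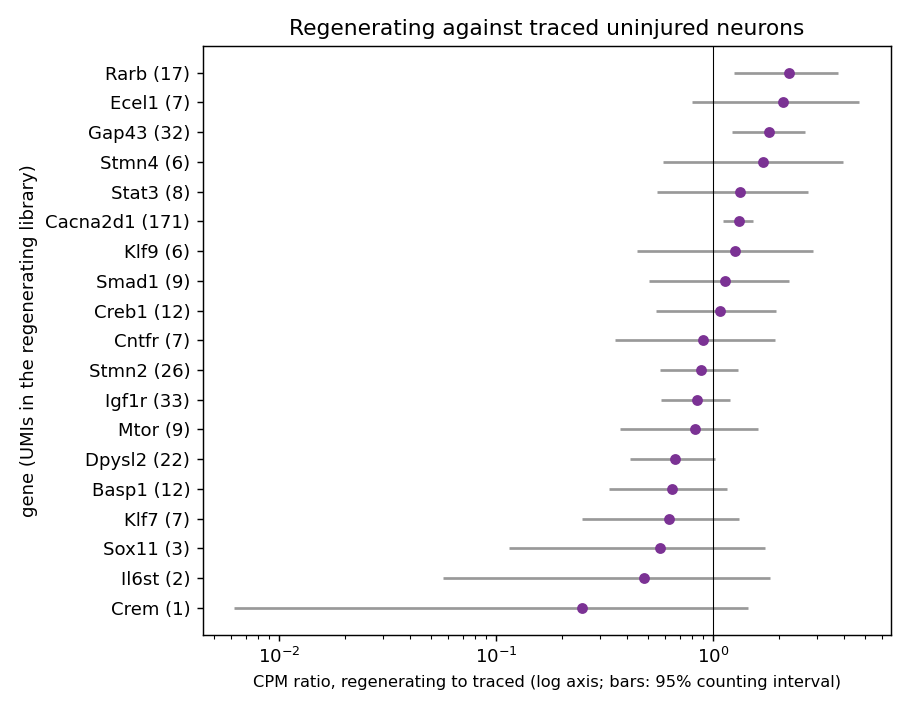
Ratio of CPM in regenerating to pooled traced neurons for the 19 members with at least 1 UMI in both (log axis), with 95% counting intervals and the regenerating UMIs in brackets. The intervals of Rarb, Gap43 and Cacna2d1 lie above 1 and those of the other 16 include 1.

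Traced and untraced neurons of uninjured cord were also compared, in a test that recovered 28% of 2-fold changes in simulated counts. Between traced and untraced uninjured neurons edgeR called 0 of 23 members and DESeq2 0, with 1 at an unadjusted p under 0.05, where 0.362% of all genes were called. That member was Igf1r, at 289 and 297 CPM in traced against 200 and 202 CPM in untraced neurons. The groups did not overlap, and the log2 difference was 0.48 (SE 0.18, adjusted p = 0.431). Cntfr (0.65, SE 0.31), Creb1 (0.47, SE 0.23) and Sox4 (-0.85, SE 0.45) came next, also without overlap, and did not pass the test either. The members' median was -0.08.

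Several members are also genes of glia, where their levels were compared in the same way. In oligodendrocytes, the myelin-forming cells, 28 members were tested against the uninjured control and 8 were called, 4 higher and 4 lower. Over all 11924 genes tested 7.61% were called, 2.83% higher and 4.77% lower. The members' median was 0.14 beside -0.08 over all genes. The 62 oligodendrocytes of hemisection replicate 1 gave 166061 UMIs and the 765 of replicate 2 gave 1745541.

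Stat3, on chromosome 11 (100885098 to 100939540, minus strand), was at 307 and 395 CPM in oligodendrocytes after hemisection. It was at 87.1 CPM in the control and at 89.5 and 190 CPM in untraced oligodendrocytes. The groups did not overlap, and the log2 difference was 2.13 against the control (SE 0.36, adjusted p = 0.00111) and 1.27 against the untraced libraries (SE 0.28, adjusted p = 0.0145). After thinning to 1000 UMIs, 30.5% and 30.6% of hemisection oligodendrocytes held a Stat3 UMI, against 7.28% in the control and 9.06% and 13.5% in untraced libraries, at median depths of 2503, 1989, 3346.5, 3205 and 2044 UMIs before thinning. No class lacked Stat3, so there was no background share to set beside these.

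Cebpd, a C/EBP factor downstream of Stat3 in acute-phase responses, was at 24.1 and 43.5 CPM after hemisection, 2.97 CPM in the control and 5.32 and 10.6 CPM in untraced oligodendrocytes. It was higher by 3.75 (adjusted p = 0.00202) and 2.27 (adjusted p = 0.0265) against these references. Socs3 was at 12.04 and 25.2 CPM after hemisection, from 2 and 44 UMIs, against 0.262 CPM in the control, from 3 UMIs. The pooled ratio was 91.7 with a counting interval of 29.5 to 461, and 17.8 (interval 8.34 to 43.8) against the untraced libraries, which held 0.851 and 3.26 CPM (adjusted p = 0.00174 and 0.0192). Hemisection did not overlap either reference in Cebpd or Socs3. Socs3 passed the filter on low counts only through the hemisection libraries, which its p-values do not allow for. Klf9 was at 211 and 214 CPM after hemisection against 123 CPM in the control and 160 and 131 CPM in untraced libraries. It was called against the control alone (0.88, adjusted p = 0.0443, and 0.41, adjusted p = 0.528), and the difference between these 2 results was not tested.

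Against the untraced oligodendrocytes, 5 members rose and none fell by the test, where 3.01% of all genes were called and 2.08% were called higher. Besides Stat3, Socs3 and Cebpd these were Gadd45a, a stress-induced gene of DNA demethylation and repair, and Sox11. Of the 5, Socs3 and Sox11 passed the filter on low counts only through the hemisection libraries. Their p-values do not allow for that, and such members could be called higher but hardly lower. Gadd45a was at 18.1 and 20.1 CPM after hemisection, from 3 and 35 UMIs, against 1.91 and 0.815 CPM (3.46, adjusted p = 0.0107). Sox11 was at 24.1 and 16.6 CPM, from 4 and 29 UMIs, against 1.91 and 1.63 CPM (3.18, adjusted p = 0.0233). The control held 5.77 CPM of Gadd45a and 4.64 CPM of Sox11, above the untraced and below the hemisection levels, and neither passed against it. In oligodendrocytes, then, Sox11 stood above both references, with an adjusted p of 0.111 against the control. Of the members not called, the smallest p-values were those of Cacna2d1 (-1.28, adjusted p = 0.0887) and Crem (1.00, adjusted p = 0.0911) against the control. Against the untraced libraries they were those of Sox4 (4.30, adjusted p = 0.0507), Anxa2 (2.07, adjusted p = 0.150), Igf1r (-0.54) and Flrt3 (-2.83). Crem, at 66.2 and 77.3 CPM after hemisection, lay above the control at 39.5 CPM and the untraced libraries at 50.6 and 34.2 CPM.

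The 4 members that fell against the control were Stmn2, Gap43, Basp1 and Flrt3. In the control, Stmn2 and Flrt3 were highest in neurons, at 223 and 92.6 CPM, while Basp1 and Gap43 were higher in another class. In the control, Basp1 was at 419 CPM in microglia and 140 CPM in neurons. Gap43 was there at 170 CPM in oligodendrocyte precursors and 108 CPM in neurons. Stmn2 was at 0 and 7.45 CPM after hemisection, 93.4 CPM in the control and 13.4 and 6.52 CPM in untraced oligodendrocytes (-3.73, adjusted p = 0.000243). The 8 neuronal markers summed to 1830 CPM in control oligodendrocytes, 403 and 147 CPM after hemisection and 215 and 226 CPM in untraced libraries. Gap43 at 48.2 CPM, Basp1 at 71.8 CPM and Flrt3 at 28.5 CPM were likewise highest in the control. Against the untraced oligodendrocytes none of these 4 was called. Their link to the neuronal RNA in the control, or to RNA of other classes, was not tested.

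Replicate 2 of the hemisection carries much of the oligodendrocyte result. Without it, 1 member was called, Stmn2, and Stat3 had a difference of 1.85 (adjusted p = 0.0726), while without replicate 1 the called members numbered 7. The 8 microglial markers summed to 654 CPM in oligodendrocytes of hemisection replicate 2, 211 CPM in replicate 1, 168 CPM in the control and 78.9 and 300 CPM in untraced libraries. Microglia of replicate 2 held 303 CPM of Stat3, 24.8 CPM of Cebpd and 38.4 CPM of Socs3 while its oligodendrocytes held 395, 43.5 and 25.2 CPM of these genes. The part of microglial RNA in the oligodendrocyte differences was not tested. With both references pooled, 0 members were called.

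In microglia, the immune cells of the cord, 22 members were tested against the control and 9 were called, 4 higher and 5 lower. Over all 8283 genes tested 20.4% were called, 7.35% higher and 13% lower. Atf3 was at 157 and 48.0 CPM after hemisection against 6.87 CPM in the control and 11.998 and 20.4 CPM in untraced microglia. It was higher against both references without overlap, by 3.41 (SE 0.78, adjusted p = 0.000527) and 2.14 (SE 0.65, adjusted p = 0.0242). Atf3 passed the filter on low counts only through the hemisection libraries, where it was high, and its p-values do not allow for that. Neurons of the same hemisection libraries held 0.983 and 0 CPM of Atf3. Stat3 was at 399 and 303 CPM against 147 CPM in the control (1.18, adjusted p = 0.0161), but untraced microglia held 240 and 259 CPM (0.36, adjusted p = 0.680). Klf6 was at 157 and 117 CPM against 54.0 CPM in the control and 72.0 and 58.3 CPM in untraced libraries (1.24, adjusted p = 0.0420, and 0.91, adjusted p = 0.197). Socs3 rested on 1 and 48 UMIs after hemisection and 1 in the control, a ratio of 37.5 with an interval of 6.42 to 1511 (adjusted p = 0.00642). Untraced replicate 2 held Socs3 at 29.1 CPM, inside the hemisection range of 12.1 to 38.4 CPM.

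Jun was called against the untraced microglia and not against the control. It was at 60.4 and 40.8 CPM after hemisection, 29.4 CPM in the control and 204 and 134 CPM in untraced microglia, and fell by 1.98 against the latter (SE 0.42, adjusted p = 0.000410). Against the control it differed in the other direction without passing the test. In that comparison with untraced microglia, Atf3 and Jun were the 2 members called and 7.68% of all genes were called. Sox4 (-2.12, adjusted p = 0.0566) and Dpysl2 (-0.95, adjusted p = 0.0574) came next. Against the control, the uncalled members with the smallest p-values were Il6st (-0.83, adjusted p = 0.108), Cebpd (1.70, adjusted p = 0.147), Anxa2 (2.21, adjusted p = 0.148) and Dpysl2 (-0.71, adjusted p = 0.182).

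The 5 members that fell in microglia against the control were Stmn2, Gap43, Stmn4, Cacna2d1 and Sox4. Stmn2 was at 12.1 and 2.40 CPM after hemisection, 139 CPM in the control and 3.00 and 2.91 CPM in untraced microglia (-5.37, adjusted p = 1.15e-08). Control microglia also held 2692 CPM of the 8 neuronal markers, against 96.9 to 326 CPM in the other 4 libraries, and 3584 CPM of oligodendrocyte markers, against 217 to 1236 CPM. The part of this RNA in the 5 differences was not tested. Without hemisection replicate 2, 3 members were called (Atf3, Stmn2 and Stmn4), and with both references pooled 0 were, Atf3 having an adjusted p of 0.0760.

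**Figure D5:**
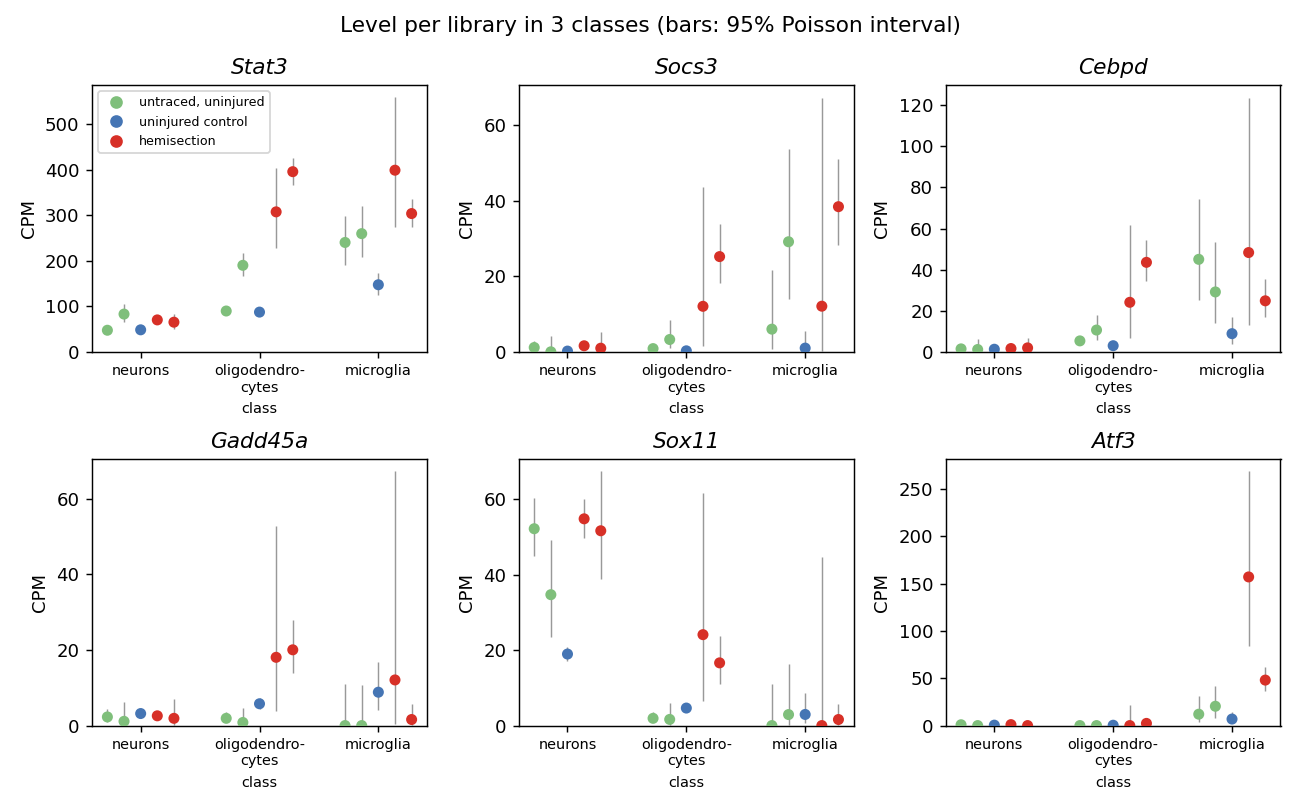
CPM of Stat3, Socs3, Cebpd, Gadd45a, Sox11 and Atf3 in neurons, oligodendrocytes and microglia, 1 point per library with 95% Poisson intervals, coloured by group (untraced, uninjured control, hemisection, from left to right in each class). In oligodendrocytes both hemisection points of Stat3, at 307 and 395 CPM, lie above all 3 uninjured points, while in neurons they lie among them.

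The cytokine pathway list was also read in glia. In oligodendrocytes 3 of 17 tested genes of gp130 and JAK-STAT signalling rose against the control, Stat2 (2.68) and the kinase Jak2 (0.96) among them, where 2.83% of all genes were called higher. Against the untraced oligodendrocytes 3 of 17 rose, Stat2 (2.21) and the kinase Pim1 (4.70) among them, where 2.08% of all genes were called higher. In microglia 4 of 15 rose, among them Stat2 (3.31), Pim1 (2.63) and Jak2 (1.22), where 7.35% of all genes were called higher. Against the untraced microglia 3 of 15 rose and 2 fell, where 7.68% of all genes were called in either direction. Stat3 itself stood above the control and both untraced libraries in oligodendrocytes and microglia after hemisection, while in neurons untraced replicate 2 exceeded both hemisection libraries.

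Whether the hemisection response differed between classes was tested in 1 model of the 3 libraries of experiment 2, as the response in the glial class minus that in neurons. Of 29 members tested, 5 differed between oligodendrocytes and neurons, where 4.28% of 13061 genes were called, and 6 between microglia and neurons, where 10.8% were. The response of Stat3 was larger in oligodendrocytes than in neurons by 1.60 on the log2 scale (SE 0.48, adjusted p = 0.0294), and that of Cebpd by 3.21 (SE 1.00, adjusted p = 0.0368). With the untraced libraries as reference, the Stat3 difference was 1.11 (adjusted p = 0.0921) and the Cebpd difference 1.88 (adjusted p = 0.717), and the Sox11 difference of 2.87 passed (adjusted p = 0.00490). The response of Anxa2 was larger in microglia than in neurons by 3.97 (SE 1.20, adjusted p = 0.0127), with microglial levels of 12.1 and 38.4 CPM after hemisection and 6.87 CPM in the control. Its microglial difference alone did not pass the test (2.21, adjusted p = 0.148). On the neuronal side stood the 7 Anxa2 UMIs after hemisection and 108 in the control, a ratio of 0.146, with 43 of the control's in motor neurons. Anxa2 passed the filter of this model only through glia after hemisection. The other differences were negative and concerned Stmn2, Gap43, Basp1, Stmn4, Cacna2d1 and Sox4. Of these, Stmn2 and Cacna2d1 were highest in neurons in the control, at 223 and 891 CPM, and the others in another class. In the control, Stmn4 was at 439 CPM in oligodendrocytes and 37.6 CPM in neurons, and Sox4 at 43.2 CPM in microglia and 13.7 CPM in neurons. The response of Atf3 differed by 3.16 between microglia and neurons (adjusted p = 0.128), with 8 Atf3 UMIs in hemisection neurons and 9 in control neurons.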

How the data were processed

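The authors deposited unnormalized UMI counts in 1 matrix of 19787 genes by 12447 nuclei from 8 libraries, with an annotation of each nucleus by library, class and neuron subtype, which was used as deposited. The submitters' processing notes name the tools Cell Ranger (version 4.0.0) and Seurat (version 3) and the builds mm10 and GRCm38. The sources used here do not say how nuclei were filtered and annotated, or whether intronic reads were counted or doublets removed. No doublet caller was run. For each class and library, counts were summed over nuclei and divided by their total to give CPM.

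Neurons of all 8 libraries entered 1 fit with edgeR 4.0.16 in R 4.3.3 (TMM scaling, filterByExpr with a minimum count of 10 and a minimum total of 15, quasi-likelihood test, 3 residual degrees of freedom). The filter keeps a gene that reaches the minimum count, scaled to the median depth, in as many libraries as the smallest group holds. In the main fits 1 library was enough. Benjamini-Hochberg adjustment ran over all genes tested, and genes were called at an adjusted p under 0.05. Classes and subtypes with 20 or more nuclei in all libraries of experiment 2 were fitted, with 2 residual degrees of freedom. DESeq2 1.42.0 was an alternative. Single levels have 95% Poisson intervals, ratios of 2 counts have exact binomial intervals, and a count of 0 allows up to 3 counts. Shares of nuclei with a UMI were taken after thinning each nucleus to 1000 UMIs, or to 300 where the regenerating library was compared. The fits were tested on simulated counts. Of 2-fold changes, 35.4% were recovered for hemisection against control neurons, 50% against untraced neurons and 28% for traced against untraced neurons. Of 4-fold changes, 86%, 98% and 87.8% were. For oligodendrocytes and microglia against the control, 6% and 12% of 2-fold changes were recovered. For regenerating against traced neurons, 8.33% of 2-fold and 63.3% of 16-fold changes were. An uncalled member may therefore still differ.

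Same-numbered traced and untraced libraries come from the same uninjured replicate by their titles, and their replicate differences correlated at 0.163 over 8148 genes with at least 5 counts. Full statistics are given for members called in a comparison and the 4 others with the smallest p. The other genes of related pathways are 8 lists: gp130 and JAK-STAT, PI3K and mTOR, AP-1 and CREB partners, other Klf genes, other Sox genes, other growth cone and cytoskeleton genes, injury peptides and signals, and growth restraint. The members and these lists were chosen with earlier results of these data known. Promoter windows came from RefSeq on GRCm38.p6. Some genes and neuron subtypes are not reported here.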

Additional observations from a re-analysis of the deposited data

Results flagged for a closer look

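The response to hemisection, taken as the log2 difference from the uninjured control, differed between a glial class and neurons for several members by the edgeR interaction test over the 3 libraries of experiment 2. For microglia minus neurons the difference was 3.97 for Anxa2, -2.53 for Cacna2d1, -4.65 for Gap43, -2.91 for Sox4, -5.00 for Stmn2 and -2.31 for Stmn4. For oligodendrocytes minus neurons it was -1.94 for Basp1, 3.21 for Cebpd, -2.67 for Gap43, 1.60 for Stat3 and -3.39 for Stmn2. Negative values mean a larger drop, or a smaller rise, in the glial class. Control microglia and oligodendrocytes held 2692 and 1830 CPM of the 8 neuronal markers, against at most 403 CPM in the hemisection and untraced libraries, and the part of that RNA in the negative differences was not tested.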

How the results depend on the processing

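In neurons, 2 members were called between hemisection and control. DESeq2 called 0, a fit of the compared groups alone 8, equal neurons per subtype 1, and leaving out a hemisection replicate 0 to 2. With both uninjured references pooled, chosen after seeing the data like the untraced reference in glia, 0 were called. Over all genes, where 645 were called, these settings gave 137, 2413, 238, 171 to 327 and 18, no filter 1101, and thinning to the shallowest library 255. For hemisection against untraced neurons (22 called), DESeq2 called 8, no filter 84, equal neurons per subtype 3 and leave-one-out 9 to 104. For regenerating against traced neurons (32 called), no filter called 185, the compared groups alone 88, equal neurons per subtype 11, thinning 19 and leave-one-out 0 to 28. For traced against untraced neurons (42 called), no filter called 234, equal neurons per subtype 0 and leave-one-out 19 to 93.

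The replicate block of experiment 1, whose numbers pair traced and untraced libraries, raised the counts over all genes in these 4 comparisons to 1344, 82, 59 and 141. It added Creb1 in the first (0.66, adjusted p = 0.038), for 3 members, and changed no other member's call in neurons.

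In microglia, members called (9) numbered 3 to 9 with a hemisection replicate left out, 2 with the untraced reference and 0 with pooled references; genes called (1686) numbered 412 to 1840, 636 and 195. In oligodendrocytes, members called (8) numbered 1 to 7, 5 and 0, and genes called (907) numbered 106 to 784, 359 and 109. In DE_Reln_Nmur2, genes called (98) numbered 11 to 47 with a replicate left out and 3 with the untraced reference. In the test between classes, RLE scaling gave 2194 genes for microglia and 1137 for oligodendrocytes, and the untraced reference gave 308 and 110. Members called there fell to 2 for microglia and 1 for oligodendrocytes with the untraced reference, and to 3 for oligodendrocytes with no filter. Leaving out a replicate left that test no residual degrees of freedom.

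Of the values that passed the test with either reference, 5 changed sign with the untraced one: Stmn2 in microglia (0.044) and in the microglial difference from neurons (0.15), Gap43 in oligodendrocytes (0.10) and in their difference from neurons (0.13), and Jun in microglia (-1.98). Sign changes of members that passed with neither reference are not counted here. The cause of these changes was not tested. The regenerating library's depth limits any call on members under 22.2 CPM.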

Other observations

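Astrocytes, oligodendrocyte precursors and vascular cells had fewer than 20 nuclei in at least 1 hemisection library. Stat3 was at 269 and 135 CPM in the 6 and 7 hemisection astrocytes, from 7 and 4 UMIs, against 86.0 CPM in the control and 93.1 and 33.1 CPM in untraced astrocytes. In vascular cells it was at 456 and 490 CPM, from 3 and 17 UMIs, against 127 CPM in the control and 255 and 359 CPM in untraced libraries. Counting intervals of the hemisection and untraced levels overlapped in both classes. In vascular cells the pooled hemisection interval (296 to 748 CPM) lay above that of the control (104 to 154 CPM). In astrocytes the pooled hemisection interval began at 98.64 CPM and the control's ended at 98.57 CPM.

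Oligodendrocyte precursors had 14 and 26 nuclei after hemisection and were fitted with a minimum of 10 nuclei. There edgeR called 163 of 3250 genes and 0 of 12 members, with 2 at an unadjusted p under 0.05. These were Jun, at 124 and 155 CPM after hemisection against 32.4 CPM in the control and 64.7 and 108 CPM in untraced precursors (2.04, adjusted p = 0.0760), and Rarb, at 111 and 164 CPM against 35.7, 61.6 and 86.1 CPM (1.89, adjusted p = 0.133). In both, the hemisection libraries lay above all 3 uninjured libraries. Stat3 was at 152 and 203 CPM against 97.2, 67.8 and 86.1 CPM (0.82, adjusted p = 0.495).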
